A study of Mus musculus with 6 samples.

Results

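The GIMAP genes encode GTP-binding proteins of lymphocytes, and all 8 that were looked for (Gimap1, Gimap3, Gimap4, Gimap5, Gimap6, Gimap7, Gimap8 and Gimap9) were found by symbol among the 53379 gene identifiers of the deposited tables. Their RNA was measured in regulatory T cells (Tregs) that had been sorted from C57BL/6 mice aged 3 months, by a gate that the labels leave unstated. The KO group has 3 libraries, labelled bKO, from mice that carry the Foxp3YFP-Cre allele and floxed Junb (JunbFlox/Flox). The WT group has 3 libraries from mice with the same Foxp3YFP-Cre allele and unaltered Junb (Junb+/+). Cre stands under Foxp3, so floxed Junb is removed in cells that use Foxp3, and both groups carry Cre. JunB forms part of AP-1, a dimeric transcription factor. The comparison asks how the levels of these genes differ between Tregs with floxed and with unaltered Junb.

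GIMAP proteins bind GTP through a domain related to that of septins, and several of them sit on the membranes of organelles such as lysosomes, Golgi and lipid droplets. They are best known for keeping resting T and B cells alive. Loss of Gimap5 causes a shortage of T cells in rats and mice, and loss of Gimap1 in mice removes mature T and B cells. Gimap6 binds an ATG8 protein of autophagy, Gimap4 affects how fast T cells complete apoptosis, and Gimap3 is the closest relative of Gimap5.

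The 8 genes lie side by side on chromosome 6 of GRCm38, within 123.6 kb from position 48647234 to 48770851. Gimap8 (48647234 to 48660875), Gimap9 (48676129 to 48679114), Gimap4 (48684549 to 48692060), Gimap7 (48718621 to 48724636), Gimap1 (48739054 to 48743795) and Gimap5 (48746197 to 48754210) run on the plus strand. Gimap6 (48701582 to 48708225) and Gimap3 (48764464 to 48770851) run on the minus strand. The span holds 5 other annotated genes. Of these, Gm28053 shares exon sequence with Gimap7, Gimap1 and Gimap5, and Gimap1os lies antisense over Gimap1.

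**Figure D1:**
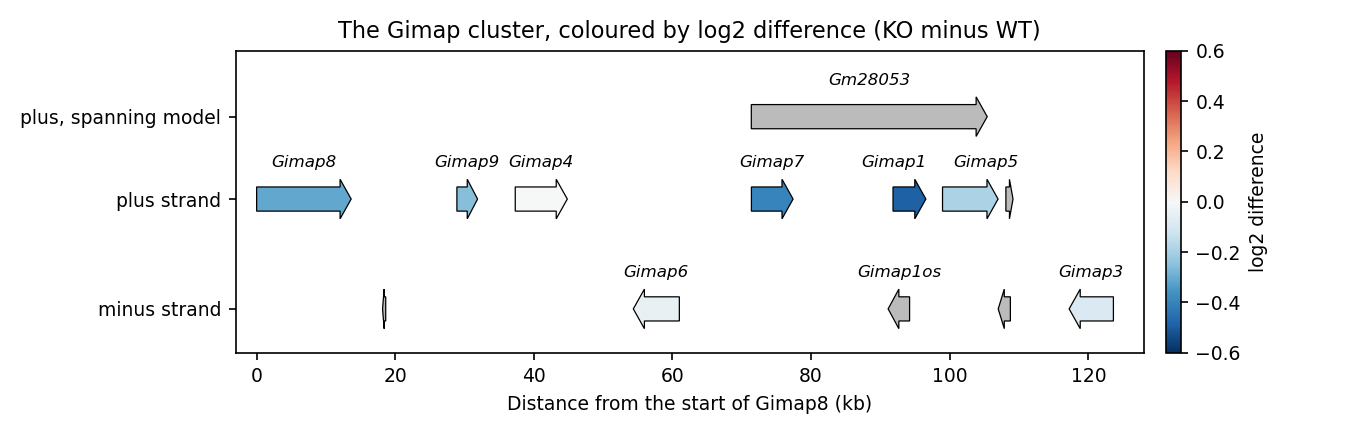
Map of the Gimap cluster, with the distance from the start of Gimap8 in kb on the horizontal axis and the strand on the vertical axis. Arrows are genes, coloured for the 8 members by the log2 difference KO minus WT, with other genes in grey. Gimap1, Gimap7 and Gimap8 have the deepest blue, at -0.49, -0.40 and -0.31, and Gimap4 is near white at -0.002.

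Shared sequence sets how far the counts of single members can be told apart. The coding sequences of Gimap3 and Gimap5 (903 and 924 bases) were 90.4% identical over 895 aligned bases, and they share a run of 140 bases without a difference. That run is shown because reads had 50 bases, so a read from within it can come from either gene (GENCODE M21 transcripts, chromosome 6, 5′ to 3′, lower case throughout as no part is singled out):
Gimap3 and Gimap5 shared run: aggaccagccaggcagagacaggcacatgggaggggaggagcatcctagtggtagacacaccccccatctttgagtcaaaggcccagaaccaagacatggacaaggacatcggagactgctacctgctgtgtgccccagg
Of the 2528 stretches of 50 bases in Gimap3 transcripts 190 also occur in Gimap5, which has 4195 such stretches. Gimap1 shares 1107 of its 3073 exon bases (36.0%) with another gene, all of them with Gimap1os on the opposite strand, while 198 bases overlap Gm28053. The exons of Gimap3, Gimap4, Gimap6, Gimap8 and Gimap9 overlap no other gene. No stretch of 50 bases of Gimap4, Gimap8 or Gimap9 occurs in another annotated gene, so their counts are the best defined of the family. Gimap7 and Gimap5 share 81 (3.5%) and 153 (3.7%) of their exon bases with Gm28053 on the same strand. The counts of Gimap1, Gimap3, Gimap5 and Gimap7 are uncertain by this sharing and by the level of the gene shared with. Gimap3 had more counts than Gimap5, 29866 against 5048 in KO replicate 1 and 38702 against 7356 in WT replicate 1. Reads counted at both would therefore make up more of the Gimap5 count than its share of stretches. The labels do not say how counting treated strand, overlapping genes and reads with several matches. Counts of a near-identical pair elsewhere, given with the processing, were almost equal, so reads with several matches were apparently counted at each.

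Promoter windows from RefSeq (GRCm38.p6, 250 bases before to 50 after a gene start) matched all 8 members, with 9 windows in all. The AP-1 motif TGANTCA, searched on both strands, was in 0 of the 9 windows and in 7.8% of all 32851 windows. The related letters TGACGTCA, to which AP-1 and CREB proteins bind, were in 0 of the 9 windows and in 1.8% of all. The ETS core GGAAGT, chosen after its matches had been seen, was in 4 of the 9 windows, those of Gimap1, Gimap5, Gimap6 and Gimap9, and in 23.8% of all. No match overlaps another motif in these 9 windows. The windows of Gimap1 (chr6:48738797-48739096, plus strand) and of the upstream start of Gimap8 (chr6:48646984-48647283, plus strand) are shown, since these are the members whose KO and WT libraries did not overlap. Capitals mark GGAAGT or its reverse complement.
Gimap1: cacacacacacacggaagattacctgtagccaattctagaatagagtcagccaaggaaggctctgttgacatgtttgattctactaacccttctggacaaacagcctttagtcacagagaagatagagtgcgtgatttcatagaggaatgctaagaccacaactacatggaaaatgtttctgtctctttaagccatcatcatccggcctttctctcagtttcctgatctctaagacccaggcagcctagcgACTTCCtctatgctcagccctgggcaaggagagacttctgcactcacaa
Gimap8: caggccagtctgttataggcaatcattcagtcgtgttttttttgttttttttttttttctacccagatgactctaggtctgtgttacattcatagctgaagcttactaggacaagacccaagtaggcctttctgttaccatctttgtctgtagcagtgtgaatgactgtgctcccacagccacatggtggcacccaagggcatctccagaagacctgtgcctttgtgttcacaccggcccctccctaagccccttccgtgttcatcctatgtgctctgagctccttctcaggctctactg
The window of Gimap1 has the ETS letters at the RefSeq gene start, on the minus strand, and that of Gimap8 has none. A match, or its lack, describes the letters of these windows.

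Library totals lay between 33784183 and 41231173 counts, and the 8 genes together took 0.256% to 0.368% of a library's counts. Values are CPM, counts scaled to a common library total with TMM library sizes, and each mean is given with its SD over 3 libraries. Junb stood at 57.1, 57.3 and 49.6 CPM in KO replicates 1 to 3, against 87.1, 77.5 and 89.5 CPM in WT replicates 1 to 3, so reads of Junb remained in KO. Its log2 difference was -0.63 (SE 0.13), with an adjusted p of 0.9999 by edgeR, and DESeq2 called it. Marker genes of Tregs and of other cells varied between libraries. The summed CPM of 5 Treg markers, Foxp3, Il2ra, Ctla4, Ikzf2 and Tnfrsf18, was 487 in KO replicate 1, and it was 838 and 1145 in the other KO libraries and 1058 to 1179 in WT. That of 8 B cell markers was 2167 to 2738 in KO and 459.5 to 4364 in WT, where WT replicate 2 held the highest value. KO replicate 1 and WT replicate 2 therefore stand apart from the rest of their groups. The family and most marker counts are also given with 1 of these libraries left out at a time. The tables fall into 2 sets by a number in their names, and the labels do not explain that number. Set A holds KO replicate 2 and WT replicates 1 and 2, and set B holds KO replicates 1 and 3 and WT replicate 3.

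The family was abundant in both genotypes, and the mean level of its members over the 6 libraries ran from 36.4 to 417 RPKM. RPKM is CPM per kilobase of exon, and levels of different genes are compared on this scale. Gimap4 averaged 416 ± 69.9 RPKM in KO and 417 ± 82.8 RPKM in WT, and Gimap3 averaged 386 ± 68.7 RPKM in KO and 410 ± 42.7 RPKM in WT (SD, n = 3 each, as for all means). These placed Gimap4 and Gimap3 at ranks 90 and 91 of the 12830 protein-coding genes tested, by mean RPKM in WT. Gimap6 followed with 151 ± 14.4 RPKM in KO and 156 ± 19.5 RPKM in WT. Gimap7, of which the human protein forms dimers on lipid droplets, averaged 77.5 ± 23.6 RPKM in KO and 102 ± 7.14 RPKM in WT. Gimap1 averaged 70.7 ± 11.8 RPKM in KO and 99.3 ± 10.6 RPKM in WT. The lower end was formed by Gimap9, a member with little known of its role, Gimap5, and Gimap8, a large member with several GTP-binding domains. Gimap9 averaged 57.2 ± 11.6 RPKM in KO and 68.3 ± 13.7 RPKM in WT, and Gimap5 averaged 41.5 ± 8.29 RPKM in KO and 47.3 ± 3.72 RPKM in WT. Gimap8 averaged 32.5 ± 0.956 RPKM in KO and 40.3 ± 2.06 RPKM in WT, at rank 842 in WT.

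The order of the levels held in all libraries for some neighbours and not for others. Gimap3 lay above Gimap6, Gimap6 above Gimap7, Gimap9 above Gimap5 and Gimap5 above Gimap8 in 6 of 6 libraries. The place of Gimap5 above Gimap8 (means of 44.4 and 36.4 RPKM) is uncertain, since reads of Gimap3 counted at Gimap5 would raise Gimap5. Gimap4 lay above Gimap3 in 5 libraries, Gimap7 above Gimap1 in 4 and Gimap1 above Gimap9 in 5. These differences were not tested. Gimap1 and Gimap9 did not overlap in WT, at 90.7 to 111 against 53.9 to 81.3 RPKM. Their order turned in KO replicate 2, at 66.5 against 69.7 RPKM. Gimap3 had 8.93 to 9.54 times the RPKM of its close relative Gimap5 in the KO libraries and 8.22 to 9.30 times in the WT libraries. Reads counted at both genes would lower this ratio. The protein-coding genes next to the cluster were far lower. Zfp775, AI854703 and Gm44965 on the Gimap8 side, and Tmem176b, Tmem176a and Aoc1 on the Gimap3 side, reached at most 12.6 RPKM in any library (log2 differences of -0.31, -0.29 and -0.09 for Zfp775, AI854703 and Gm44965, and 0.63 and -0.03 for Tmem176b and Tmem176a, none past the edgeR test), and the lowest value of a member was 31.6 RPKM.

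**Figure D2:**
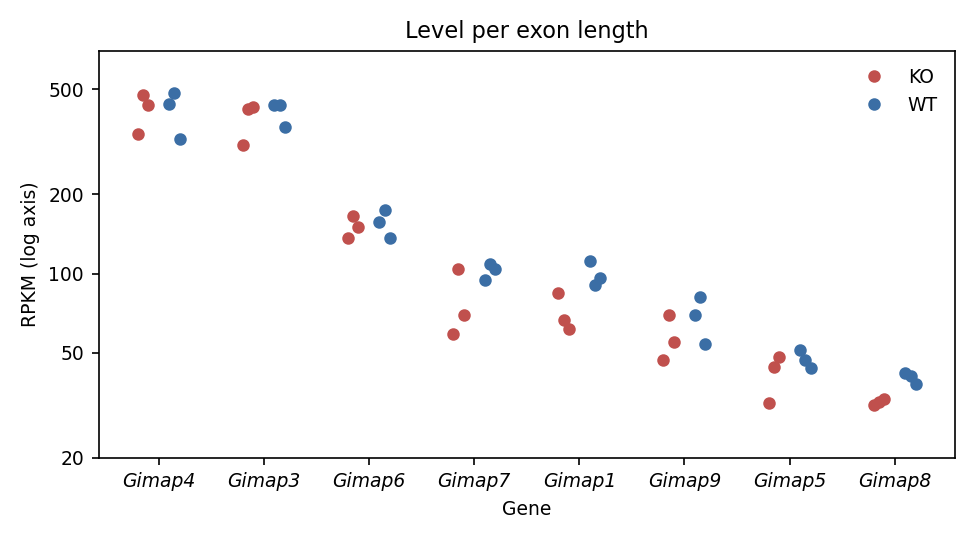
RPKM (log axis) of each Gimap gene in every library, with KO libraries left of WT libraries for each gene, ordered by the mean over all 6 libraries. Gimap4 and Gimap3 lie at 307 RPKM or more in every library, and Gimap8 lies at 42.0 RPKM or less.

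All 8 genes had a lower mean in KO than in WT, Gimap4 by a log2 difference of only -0.002, and none passed the test over all genes. The test was edgeR's quasi-likelihood test with Benjamini-Hochberg adjustment over the 20475 genes tested and a threshold of 0.05, and all 8 members passed its filter on low counts. It called 0% of all genes, and 0 members, with an adjusted p of 0.9999 for each member. DESeq2 called 0.272% of the genes with an adjusted p, and 0 members. At an unadjusted p under 0.05 edgeR gave 2 members, Gimap1 and Gimap8, both lower in KO, against 2.88% of all genes in either direction and 1.48% lower in KO. The members were chosen with earlier results of these data known, so the shares of all genes are given here as a description only. With limma-voom 3.66% of all genes had an unadjusted p under 0.05 and 0% an adjusted one. The median log2 difference of the 8 members was -0.22, a KO level of 85.8% of WT, where the median of all genes tested was 0.005 and 49.1% of them were lower in KO. Among the 3637 genes with a mean of at least 50 CPM, 49.5% were lower. The count rests on KO replicate 1: without it 5 of 8 members were lower and the median was -0.086. Without WT replicate 2, 6 of 8 were lower and the median was -0.15. The summed CPM of the family was 2614, 3401 and 3201 in KO replicates 1 to 3, against 3521, 3636 and 2949 in WT replicates 1 to 3. The groups overlap, since WT replicate 3 lies below 2 of the KO libraries.

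**Figure D3:**
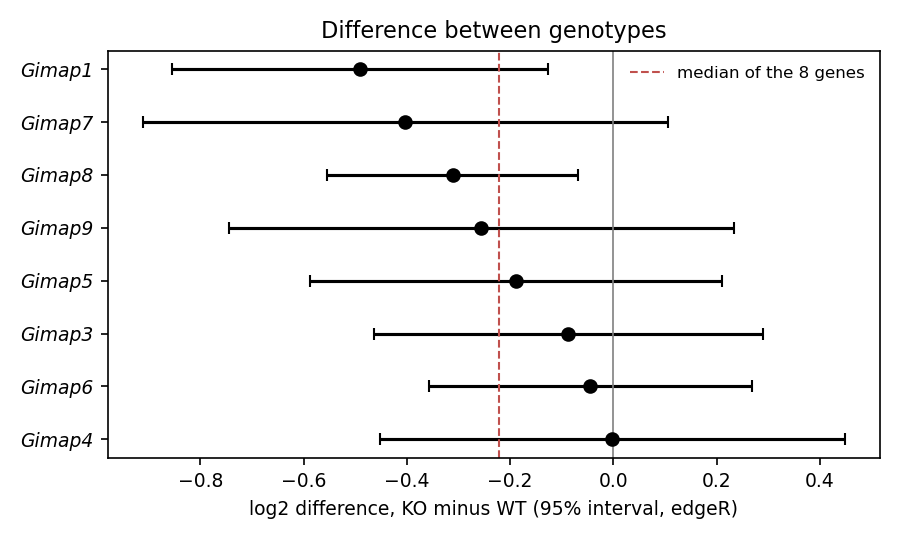
Log2 difference KO minus WT of each Gimap gene with its 95% interval from edgeR, on the horizontal axis, with genes ordered by the difference. The intervals of Gimap1 and Gimap8 lie below 0 before adjustment for the genes tested, and those of the other 6 genes include 0.

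Gimap1 showed the largest difference of the 8. It stood at 258, 204 and 189 CPM in KO replicates 1 to 3, against 342, 279 and 295 CPM in WT replicates 1 to 3. All 3 KO values were below all 3 WT values. Of all genes 4.07% were separated in this direction, 3.68% in the opposite one and 7.76% in either. The log2 difference was -0.49 (SE 0.15, 95% interval -0.85 to -0.13), a KO level of 71.2% of WT. By edgeR the unadjusted p was 0.0155 and the adjusted p 0.9999, and by DESeq2 the adjusted p was 0.384. A two-sided exact permutation test gave p = 0.1, and 3 libraries against 3 allow no smaller value. Within set A the log2 difference was -0.595, and within set B it was -0.416. With single libraries left out it ran from -0.635 to -0.401.

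The antisense gene Gimap1os and the spanning gene Gm28053 share exon bases with Gimap1, so part of their reads may be the same reads. Gimap1os stood at 119, 116 and 124 CPM in KO replicates 1 to 3, against 143, 146 and 126 CPM in WT replicates 1 to 3. These did not overlap either, at a log2 difference of -0.21 (SE 0.11, adjusted p = 0.9999 by edgeR). Gm28053 averaged 36.6 ± 3.83 CPM in KO and 45.2 ± 5 CPM in WT, with a log2 difference of -0.31 (SE 0.16) and overlapping libraries. The long noncoding genes Gm44226 and 4833403J16Rik, between Gimap5 and Gimap3, had log2 differences of -0.32 and -0.35, and neither passed the edgeR test.

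Gimap8, which shares no 50-base stretch with another gene, had the tightest values of the family. It stood at 117, 120 and 124 CPM in KO replicates 1 to 3, against 156, 151 and 141 CPM in WT replicates 1 to 3. The highest KO value lay under the lowest WT value. Its log2 difference was -0.31 (SE 0.10, 95% interval -0.55 to -0.07), a KO level of 80.6% of WT. By edgeR the unadjusted p was 0.0191 and the adjusted p 0.9999, by DESeq2 the adjusted p was 0.346, and the exact permutation p was again 0.1. The difference was -0.355 within set A and -0.226 within set B, and with single libraries left out it ran from -0.357 to -0.281. In mice Gimap8 is also known from B cells.

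Gimap7 was low in 2 of the 3 KO libraries. It stood at 137, 242 and 162 CPM in KO replicates 1 to 3, against 220, 253 and 241 CPM in WT replicates 1 to 3. KO replicate 2 lay within the WT range, and KO replicates 1 and 3 lay below it. The log2 difference was -0.40 (SE 0.21, 95% interval -0.91 to 0.11, adjusted p = 0.9999 by edgeR). It was -0.242 without KO replicate 1 and -0.674 without KO replicate 2. Both low KO libraries belong to set B, in which the difference was -0.70, and in set A it was 0.035. WT replicate 3, the other library of set B, had 241 CPM.

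The remaining 5 genes overlapped between genotypes. Gimap9 stood at 76.8, 114 and 90.4 CPM in KO replicates 1 to 3, against 114, 134 and 88.6 CPM in WT replicates 1 to 3. Gimap5 stood at 134, 184 and 200 CPM in KO replicates 1 to 3, against 213, 194 and 182 CPM in WT replicates 1 to 3. For Gimap5 only KO replicate 1 lay below all WT libraries. The log2 differences were -0.26 (SE 0.21) for Gimap9 and -0.19 (SE 0.17) for Gimap5. Without KO replicate 1 they were -0.134 for Gimap9 and -0.038 for Gimap5, and without WT replicate 2 Gimap9 was at -0.112. Gimap3 stood at 791, 1087 and 1108 CPM in KO replicates 1 to 3, against 1119, 1122 and 930 CPM in WT replicates 1 to 3. As with Gimap5, its lowest value was that of KO replicate 1, and the log2 difference was -0.09 (SE 0.16), or 0.050 without that library. Gimap6 stood at 478, 579 and 526 CPM in KO replicates 1 to 3, against 547, 611 and 475 CPM in WT replicates 1 to 3, a log2 difference of -0.045 (SE 0.13). Gimap4 stood at 622, 871 and 802 CPM in KO replicates 1 to 3, against 810, 891 and 597 CPM in WT replicates 1 to 3, a log2 difference of -0.002 (SE 0.19). The intervals do not show that these levels were alike: they allow a KO level of 73.1% to 136% of WT for Gimap4, 78.0% to 121% for Gimap6 and 72.6% to 122% for Gimap3. The sign of Gimap3 turned without KO replicate 1, and those of Gimap4 and Gimap6 turned there and under other settings as well.

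**Figure D4:**
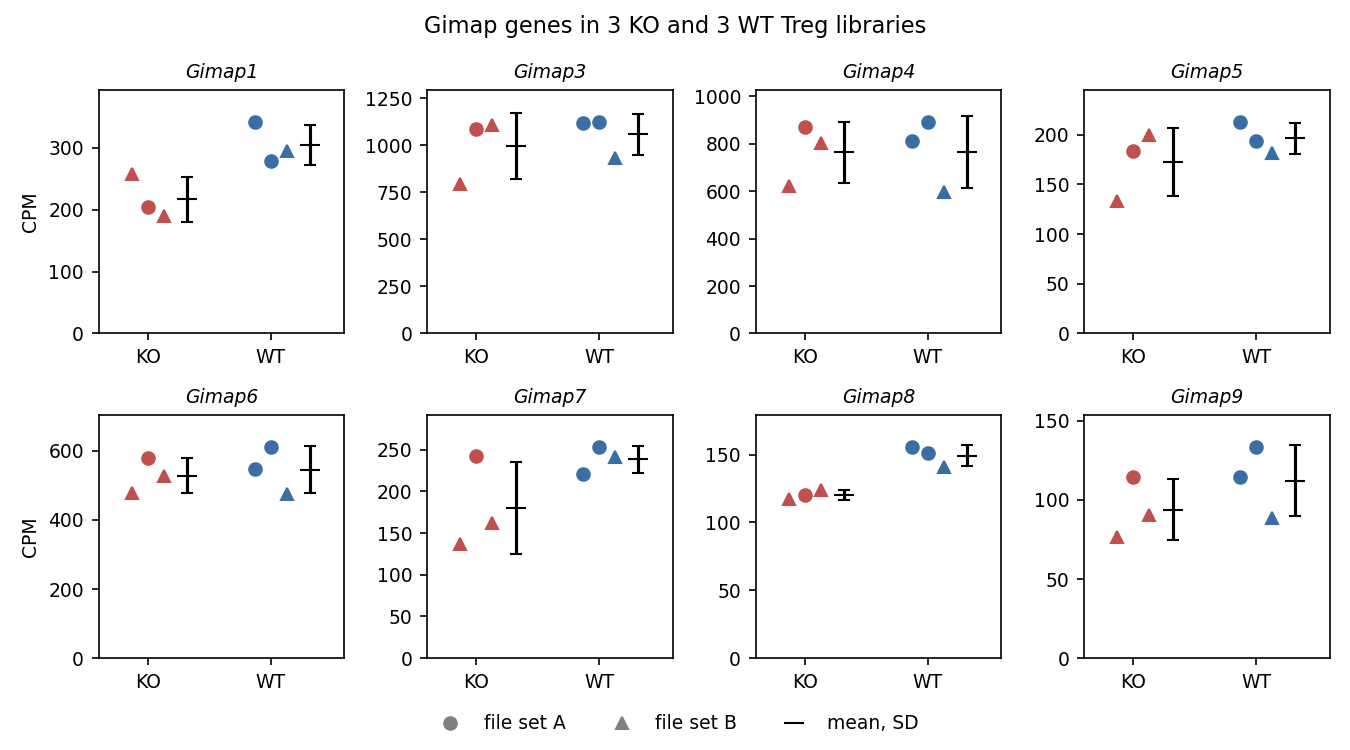
CPM of each Gimap gene in the 3 KO and 3 WT libraries, with 1 panel per gene, KO left of WT, and symbols by file set. Black bars give the mean and SD of a genotype. Gimap1 and Gimap8 show no overlap, and for Gimap4, Gimap6 and Gimap9 the triangles of set B lie below the circles of set A.

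The members did not vary as a single block across the libraries. Gimap4, Gimap6 and Gimap9, which neighbour one another, ran together with a Pearson r of 0.84 to 0.96 over the 6 libraries, and Gimap3 and Gimap5, which share reads, had an r of 0.92. All 21 pairs without Gimap1 had a positive r (0.23 to 0.96). Gimap1 had an r of -0.26 to 0.77 with the other 7. After the genotype means were removed its r was negative with each of them (-0.65 to -0.15). KO replicate 1 had the highest Gimap1 and the lowest value of the other 7 among the KO libraries. These values describe 6 libraries that share normalization and, in pairs, overlapping reads.

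In Gimap4, Gimap6 and Gimap9 the file sets separated the libraries and the genotypes did not. Every library of set B lay below every library of set A for these 3 genes, against 8.31% of all genes. In a fit with genotype and set as terms, the log2 difference of set B minus set A was -0.40 (SE 0.13) for Gimap4, -0.245 (SE 0.09) for Gimap6 and -0.47 (SE 0.12) for Gimap9. The unadjusted p was 0.0215, 0.0313 and 0.00923 for these genes in that order, against 11.4% of all genes with an unadjusted p under 0.05. By edgeR the adjusted p over all genes was 0.363, 0.392 and 0.341, and the fit called 0% of all genes. For Gimap1 and Gimap8 the set difference was 0.029 (SE 0.16) and -0.06 (SE 0.09). With the set as a term the genotype difference was -0.50 for Gimap1, -0.29 for Gimap8 and -0.33 for Gimap7. It was -0.137 for Gimap5, -0.099 for Gimap9 and -0.007 for Gimap3, and above 0 for Gimap4 (0.144) and Gimap6 (0.040). In that fit 6 of 8 members were lower in KO with a median of -0.118. In each set 5 of 8 members were lower in KO, and the median was -0.077 in set A and -0.12 in set B.

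**Figure D5:**
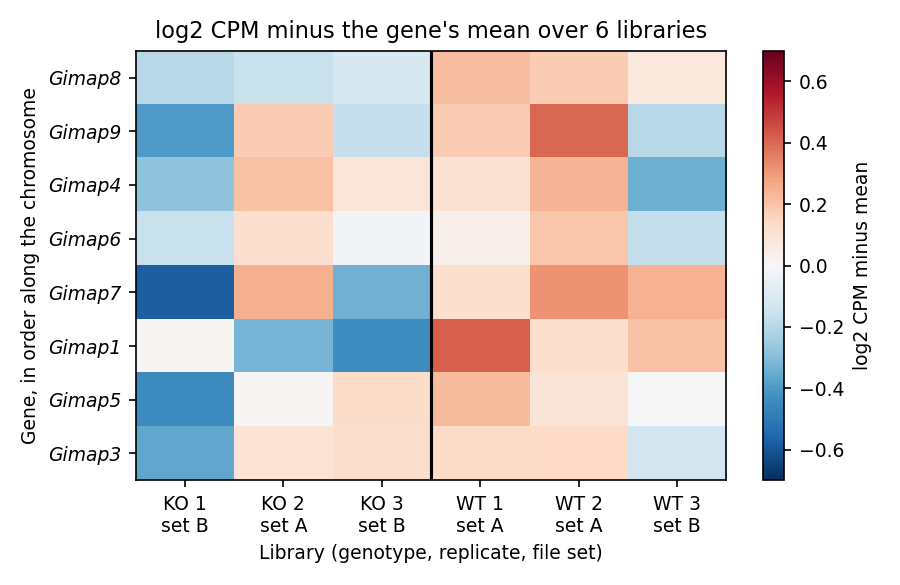
Log2 CPM of each Gimap gene minus its mean over the 6 libraries (colour), with genes in chromosome order down the page and the 3 KO libraries left of the 3 WT libraries. No KO value of Gimap8 or Gimap1 reaches the WT values of that gene, while Gimap9, Gimap4 and Gimap6 have their lowest values in KO replicate 1 and WT replicate 3.

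General T cell genes also had lower means in KO. Of 8 T cell markers, Cd3e, Cd3d, Cd3g, Cd4, Trac, Cd2, Cd5 and Lck, 8 had a lower mean in KO, 0 passed the edgeR test, and their median log2 difference was -0.20. The median was -0.12 without KO replicate 1 and -0.26 without WT replicate 2, with 8 of 8 lower in each. Without WT replicate 1 it was -0.11, with 7 of 8 lower. Their summed CPM was 3983, 4727 and 4647 in KO replicates 1 to 3, against 5780, 4585 and 4827 in WT replicates 1 to 3. The family sum divided by this marker sum was 0.656, 0.719 and 0.689 in KO replicates 1 to 3, against 0.609, 0.793 and 0.611 in WT replicates 1 to 3, so all KO libraries lay within the WT range. On this scale, chosen after seeing the data, 5 of 8 members were lower in KO with a median of -0.048, and Gimap3, Gimap4 and Gimap6 were higher. The scaling moves every gene by 0.18 on the log2 scale, so relative to all genes the members stand where they did. Gimap1 was 6.48%, 4.32% and 4.07% of the marker sum in KO replicates 1 to 3, against 5.91%, 6.08% and 6.11% in WT replicates 1 to 3, and KO replicate 1 lay above WT. Cd3e was 946 CPM in WT replicate 1 and 260 to 634 CPM in the other libraries. Without Cd3e in the sum Gimap1 was 6.94%, 4.99% and 4.38% in KO replicates 1 to 3, against 7.07%, 6.55% and 6.52% in WT replicates 1 to 3, so KO replicate 1 then lay within the WT range. Gimap8 was 2.94%, 2.54% and 2.67% of the sum with Cd3e in KO replicates 1 to 3, against 2.69%, 3.30% and 2.92% in WT replicates 1 to 3. Without Cd3e it was 3.14%, 2.93% and 2.87% in KO, against 3.22%, 3.56% and 3.11% in WT. The groups overlap on both scales. In bulk samples fewer T cells and less RNA per T cell cannot be told apart.

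Markers of other cells had group means that leaned one way for most lists, with 0 genes past the edgeR test, and their part in the Gimap values was not tested. Of 5 Treg markers 5 had lower means in KO (median log2 difference -0.44, or -0.18 without KO replicate 1). Of 7 conventional CD4 T cell markers 7 had higher means (median 0.32), with a sum of 914 to 1579 CPM in KO and 854 to 1005 CPM in WT. Without KO replicate 1, 6 of these 7 were higher, and the median was 0.09. WT replicate 2 set the overlap of the B cell and myeloid markers. Of 8 B cell markers 7 had higher means (median 0.40), and without WT replicate 2, whose sum was 4364 CPM, 8 of 8 did (median 2.10). The other WT libraries had B cell sums of 816 and 459.5 CPM, under all KO libraries. Without WT replicate 3 the direction turned, with 8 of 8 B cell markers lower in KO (median -0.09). Without WT replicate 1, 6 of 8 were higher (median 0.02). Of 8 myeloid markers 8 had higher means (median 0.81). Their sums were 730, 1026 and 379 CPM in KO replicates 1 to 3, against 256, 895 and 116 CPM in WT replicates 1 to 3. The myeloid median was 1.91 without WT replicate 2 and 0.37 without WT replicate 3. Without WT replicate 2, 8 B cell and 7 myeloid markers had an unadjusted p under 0.05 by edgeR, and 0 passed the adjusted threshold. In that fit 1125 of all 21420 genes tested had such an unadjusted p. The library was set apart by its B cell marker sum, so these marker counts are no separate result. Of 8 CD8 T and NK cell markers 7 had higher means (median 0.57, or 0.96 without WT replicate 2). Their sum was 96.5 to 202 CPM in KO and 78.5 to 151 CPM in WT. Without WT replicate 3, 5 of these 8 were higher (median 0.24), and without KO replicate 3 the median was 0.23. Of 5 tested erythroid and platelet markers 5 had higher means (median 1.55), with a sum of 40.9 to 4054 CPM in KO and 58.0 to 1461 CPM in WT, and without KO replicate 1, 4 of 5 were lower (median -0.33). Endothelial cells also use GIMAP genes. Of 6 endothelial markers 3 passed the filter, and the sum of these 3 was 104 to 123 CPM in KO and 89.4 to 136 CPM in WT. Nearly all of it was Pecam1, which lymphocytes and platelets also use, at 103 to 121 CPM in KO and 85.9 to 134 CPM in WT. Emcn had 0 counts in all libraries, and Cdh5, Kdr, Tie1 and Egfl7 stayed at or under 2.43 CPM.

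Lists of genes of the processes in which GIMAP proteins are known to take part had median log2 differences from -0.10 to 0.15. In these lists 0 genes passed the edgeR test. Of 16 ATG8 and autophagy genes 9 were lower and 7 higher in KO (median log2 difference -0.01). Gabarapl2, the ATG8 protein that binds Gimap6, averaged 83.7 ± 10.7 CPM in KO and 96.4 ± 8.33 CPM in WT with overlapping libraries, and Map1lc3b and Gabarap had log2 differences of 0.06 and -0.02. Of 12 BCL2 family genes 8 were lower and 4 higher (median -0.10). The survival genes Mcl1, Bcl2 and Bcl2a1b had log2 differences of -0.11, 0.04 and -0.18, and Bcl2a1b is uncertain since it has near-identical copies. Of 13 genes of the GSK3 and FOXO axis, which acts downstream of Gimap5 in mice, 7 were lower and 6 higher (median -0.03). The kinase gene Gsk3b averaged 131 ± 4.93 CPM in KO and 140 ± 13.5 CPM in WT, and Foxo1 and Ctnnb1 had log2 differences of -0.08 and -0.03. Of 14 lysosome genes 5 were lower and 9 higher (median 0.08), with Ctsb, Ctsd and Npc2 at 0.02, 0.08 and 0.14. Of 9 tested septin genes 3 were lower and 6 higher (median 0.15), with Sept1, Sept9 and Sept7 at 0.05, -0.03 and -0.19.

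Genes of resting lymphocytes, in which the family is typically high, did not share its direction in the count. Of 15 such genes 5 were lower and 10 higher in KO (median log2 difference 0.09), with 0 past the edgeR test. Btg1, an antiproliferative gene, averaged 792 ± 43.3 CPM in KO and 930 ± 49.4 CPM in WT without overlap (log2 difference -0.23). It was the 1 gene of the list separated as lower in KO, and 1 was separated as higher. Of all genes 4.07% were separated as lower and 3.68% as higher. Slfn2, which guards T cell quiescence, had a log2 difference of -0.16.

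The genes whose pattern over the 6 libraries was most like the family were named by their r with the mean standardised log2 CPM of the 8 members. Among 7399 genes off the locus with at least 20 CPM, the 5 highest were Sash3, an adaptor gene of lymphocytes (r = 0.994), Tnfrsf9, the costimulatory receptor 4-1BB (r = 0.992), Ankrd46 (r = 0.988), the pseudogene Gm8341 (r = 0.987) and Lgals3bp (r = 0.986). In all, 30 genes had an r of at least 0.95. Tnfrsf9 stood at 45.0, 115 and 77.5 CPM in KO replicates 1 to 3, against 158, 150 and 82.7 CPM in WT replicates 1 to 3, so it had the widest range of the 5, and like the Gimap sum it was lowest in KO replicate 1 and, among WT, in replicate 3. The log2 differences of the 5 genes ran from -0.72 to -0.11, and 0 of them passed the edgeR test. These genes were chosen by their r over the same 6 libraries, so their likeness to the family there is no separate result.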

How the data were processed

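Sorted Treg RNA was amplified with the SMARTer kit for very small inputs and sequenced as single reads of 50 bases, per the labels' protocols. The authors deposited raw read counts per Ensembl gene, 1 table per library. The submitters' processing notes name bcl2fastq 2.19.0.316, STAR 2.3, featureCounts and mm10, and no source used here gives the annotation release or the options for strand and multiple alignments. Counts of mt-Co3 and its near-identical Gm28437 were within 2 of each other in each library, so reads matching several copies were counted at each.

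Symbols, positions and exon lengths were taken from GENCODE M21, whose build GRCm38 equals mm10 (53274 of 53379 identifiers matched). Genotypes came from the labels. KO was compared with WT by edgeR 4.0.16 (R 4.3.3) using filterByExpr, TMM and robust quasi-likelihood, a model holding genotype alone, and Benjamini-Hochberg adjustment over 20475 genes. Code was tested on simulated counts. DESeq2 1.42.0, limma-voom (limma 3.58.1), other scalings and filters, left-out libraries, a replicate block and a file set term were alternatives. Members and gene lists were chosen with earlier results of these data known. The text names all members, the genes of the locus with 3 protein-coding neighbours on each side, the 3 most abundant genes of each process list (1 is not reported here), the 5 genes most like the family, and Junb. Separate animals are not stated, so p-values reflect spread that can be technical. Between libraries, chi-square per degree of freedom was 35.8 to 129, so no library was a copy.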

Additional observations from a re-analysis of the deposited data

How the results depend on the processing

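Of 8 members 0 were called by the main test or by any of 15 alternatives, namely other tools, scalings and filters, each library left out, a replicate block and a file set term. Gimap1, Gimap5, Gimap7, Gimap8 and Gimap9 had a negative log2 difference in all 15, but not a steady size: Gimap5 ran from -0.31 to -0.038, Gimap7 from -0.674 to -0.242 and Gimap9 from -0.423 to -0.099, against -0.635 to -0.401 for Gimap1 and -0.357 to -0.281 for Gimap8. Over all genes DESeq2 called 63 (0.272% of 23198 with an adjusted p), edgeR 0 (590 at an unadjusted p under 0.05) and limma-voom 0 (750 unadjusted). Without KO replicate 1, 5 of 8 members were lower in KO, and the counts without single libraries ran from 5 to 8, with medians from -0.30 to -0.086. Without that library Gimap3 stood at 0.050 (-0.176 to 0.050 with single libraries left out), Gimap4 at 0.123 (-0.159 to 0.123) and Gimap6 at 0.018 (-0.139 to 0.046). Gimap4 was also above 0 with limma-voom (0.008), without WT replicate 1 (0.039), without WT replicate 2 (0.121), with the replicate block (0.004) and with the file set term (0.144), and Gimap6 was without WT replicate 2 (0.046) and with the file set term (0.040). Divided by the summed T cell markers, a scale chosen after seeing the data, 5 members were lower with a median of -0.048. The log2 difference of the family sum was then 0.047, against -0.14 unscaled and 0.030 without Cd3e among the markers. The cause was not tested for any of these.

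The replicate numbers do not pair the libraries by the labels, and the deviations of same-numbered KO and WT libraries had correlations of -0.09, 0.19 and 0.04. With the replicate number as a block, 7 of 8 members were lower in KO with a median of -0.23, and 0 were called. Each member had at least 2900 counts in every library, so the spread between libraries limits these comparisons more than counting error does.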
